A study of Mus musculus with 54 samples.

Results

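Excitation-contraction coupling genes were followed in mouse myogenic progenitors through the onset of differentiation. The 10 genes were Cacna1s, Cacnb1, Cacng1, Stac3, Ryr1, Jph1, Jph2, Atp2a1, Atp2a2, and Casq2, out of 19653 genes listed in the deposited tables. They were found by matching the NCBI gene numbers of the tables to mouse symbols, and all 10 were listed in all 27 tables. RNA from H2K myogenic progenitors was sequenced in 54 samples of 18 groups with 3 labelled replicates each. These conditionally immortal muscle precursors were obtained from wildtype H2K mice and from H2K mice without emerin, and were grown with γ-interferon. The groups were wildtype progenitors, EMD-/y progenitors that lack the nuclear envelope protein emerin, and EMD-/y progenitors that carried wildtype emerin (+EMD) or the emerin mutants S54F, Δ95–99, or Q133H, each at 0, 24, and 48 h after the switch to horse serum medium. The +EMD, S54F, Δ95–99, and Q133H lines were made by lentiviral transduction of EMD-/y progenitors and kept in puromycin, at doses that differed between lines, and the mutant lines were plated more densely than wildtype and EMD-/y progenitors. Transduction, puromycin, and plating density therefore cannot be told apart from the introduced emerin when these lines are compared with wildtype. Wildtype and EMD-/y progenitors came from different mice, so the source of the cells cannot be told apart from the loss of emerin. The study reported more emerin protein in Q133H than in wildtype. With the switch of medium, cells also moved to a higher temperature and a medium listed without γ-interferon. All 5 lines were compared with the same wildtype groups, so their comparisons are not independent of each other.

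In skeletal muscle, an action potential travels along the T tubule and moves the voltage sensor, a calcium channel complex whose pore and sensor is encoded by Cacna1s. The sensor opens the ryanodine receptor of the sarcoplasmic reticulum, encoded by Ryr1, and calcium leaves the store. Junctophilins hold the T tubule and the reticulum together, calsequestrin binds calcium inside the store, and the SERCA pumps return calcium to it. Many of these proteins appear as progenitors leave the cell cycle and form myocytes.

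The voltage sensor genes were Cacna1s (gene 12292, chromosome 1, 136052806 to 136119822), Cacnb1 (gene 12295, chromosome 11, 98001508 to 98023034), Cacng1 (gene 12299, chromosome 11, 107703218 to 107716476), and Stac3 (gene 237611, chromosome 10, 127501617 to 127508823). Ryr1 (gene 20190) lies on chromosome 7 from 29003340 to 29125179. The junctophilin genes are Jph1 (gene 57339, chromosome 1, 16942104 to 17097922) and Jph2 (gene 59091, chromosome 2, 163336242 to 163398049). The pump genes are Atp2a1 (gene 11937, chromosome 7, 126445858 to 126463103) and Atp2a2 (gene 11938, chromosome 5, 122453513 to 122502225), and Casq2 (gene 12373) lies on chromosome 3 from 102086415 to 102146514. These positions are those of RefSeq on GRCm38.p6, the assembly also called mm10 that the reads were mapped to. The values were counted per gene and not per exon. In 6 of the 10 genes, exons overlap those of a gene on the opposite strand, by 34 to 866 bases. The longest such overlaps are between Cacna1s and Gm37759 with 866 bases, Atp2a1 and Rabep2 with 336 bases, and Ryr1 and Gm26604 with 322 bases. A strand setting is not given in the sources used here, so reads from these stretches cannot be assigned to a strand. Of the 10 genes, only Atp2a2 had a near-identical copy, with 362 bases at 99.2% identity to Gm30970.

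Promoter sequences were available for 6 of the 10 genes. The 4 members with the widest span of levels across the 18 groups, Atp2a1, Cacna1s, Casq2, and Ryr1, are shown with Jph2, the member with the narrowest span. Each line gives the 250 bases before a transcript start listed by RefSeq on GRCm38.p6, which can lie inside the outermost bounds of the gene given above, read 5′ to 3′ on the strand of the gene, and capitals mark E-boxes, the CANNTG sites that MyoD family factors are known to bind.
Atp2a1, chr7:126463074-126463323, minus strand: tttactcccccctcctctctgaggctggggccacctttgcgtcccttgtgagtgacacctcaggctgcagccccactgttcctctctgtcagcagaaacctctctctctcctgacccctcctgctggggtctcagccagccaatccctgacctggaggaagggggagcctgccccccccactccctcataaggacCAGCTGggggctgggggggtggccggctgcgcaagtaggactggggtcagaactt
Cacna1s, chr1:136052561-136052810, plus strand: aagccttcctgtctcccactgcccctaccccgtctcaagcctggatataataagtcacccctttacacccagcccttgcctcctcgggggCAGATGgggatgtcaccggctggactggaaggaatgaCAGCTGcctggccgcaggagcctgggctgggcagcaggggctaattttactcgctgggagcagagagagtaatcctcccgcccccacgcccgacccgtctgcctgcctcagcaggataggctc
Casq2, chr3:102086165-102086414, plus strand: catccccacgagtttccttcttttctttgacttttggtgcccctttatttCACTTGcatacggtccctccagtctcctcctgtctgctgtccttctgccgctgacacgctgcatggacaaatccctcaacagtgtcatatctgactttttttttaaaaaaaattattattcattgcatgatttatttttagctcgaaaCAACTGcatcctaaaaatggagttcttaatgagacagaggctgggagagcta
Ryr1, chr7:29125152-29125401, minus strand: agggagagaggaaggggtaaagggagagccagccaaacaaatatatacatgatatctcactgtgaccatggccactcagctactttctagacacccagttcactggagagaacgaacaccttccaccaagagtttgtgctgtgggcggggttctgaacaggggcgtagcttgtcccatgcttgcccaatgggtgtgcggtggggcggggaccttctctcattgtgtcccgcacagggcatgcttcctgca
Jph2, chr2:163397994-163398243, minus strand: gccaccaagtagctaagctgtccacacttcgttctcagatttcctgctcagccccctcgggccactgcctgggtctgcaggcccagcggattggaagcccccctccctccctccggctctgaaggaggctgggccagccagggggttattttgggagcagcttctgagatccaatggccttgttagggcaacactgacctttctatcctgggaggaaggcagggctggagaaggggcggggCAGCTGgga
E-boxes were counted by their letters CANNTG, a pattern that is its own reverse complement, with overlaps allowed. The Cacna1s and Casq2 promoters held 2 each, the Atp2a1 and Jph2 promoters 1 each, and the Ryr1 promoter 0. Of the bases shown, the last 56 of Jph2, 30 of Atp2a1, 28 of Ryr1, and 5 of Cacna1s lie within the gene bounds, and so does the E-box of Jph2. Over all 32851 promoters in the table, 66.2% held at least 1 E-box, beside 6 of the 8 promoters listed for the members. These 8 promoters belong to 6 genes, since Jph2 and Cacnb1 have 2 each. The 2 Jph2 stretches overlap and hold the same E-box, which is counted in both. The form CAGCTG, one of these E-boxes, was present in Atp2a1, Cacna1s, and Jph2 and in 13% of all promoters. A MEF2 motif, sought on both strands, was present in Casq2 and in 1.69% of all promoters.

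The deposited value of a gene in a group is a normalised count made by the authors from 3 replicates. It is not a plain mean. Genes with a single read had ratios near 0, so the printed ratios, folds, and levels are moderated ones, by an amount not known for the members, and a group's value can depend on the group it is paired with. The tables give no spread between replicates and the authors' own test columns were not used, so no difference is given with a test here. Ratios were taken only within a table, on the log2 scale and without a pseudocount. A gene is counted as higher or lower here when its values differed at least 2-fold and the higher value was at least 10, and the same share over all genes is given as background. To compare genes with each other, values were divided by gene length and scaled to a sum of 1000000 per group, and these length-scaled levels were averaged over the tables that hold a group. Tables were normalised separately and the deposited length of a gene can differ between them, so levels across tables hold only approximately. The lowest value of any member in any table was 75.0 for Cacna1s in Q133H at 24 h, so all 10 members passed the minimum in all 27 tables. In bulk RNA, fewer cells of a type and less RNA per cell cannot be told apart.

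Transcripts of the targeted gene and of cell type markers were examined once. The averaged value of Emd was between 1055 and 1930 in the wildtype groups, at most 2.35 in EMD-/y, and at most 1.72 in the transduced lines, so the mouse gene does not check the introduced emerin. All 10 myoblast and myocyte markers had values of at least 10 in all 18 groups. Summed levels of other cell types were low beside the summed level of the myoblast and myocyte markers, which lay between 1823 and 38210. The 3 leukocyte markers summed to between 0.943 and 11.4, the 4 fibroblast and adipocyte markers to between 1.15 and 7.64, the 2 smooth muscle markers to between 0.399 and 7.50, the 2 cardiomyocyte markers to between 0.0382 and 2.21, and the 3 endothelial markers to between 0.355 and 0.971. Ptprc, the defining leukocyte marker, stayed at an averaged value of at most 1.93. The leukocyte sum was highest in Q133H at 48 h, with 11.4 beside 2.10 in wildtype, and its macrophage marker Cd68 had a log2 ratio of 2.11 there. Q133H is also the line with the lowest members at 48 h, and the part of these markers in that result was not tested.

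In differentiating wildtype progenitors, the excitation-contraction coupling genes were higher on each following day. From 0 to 24 h, 8 of 10 genes were at least 2-fold higher, against 12.7% of all genes, and 0 were at least 2-fold lower, against 10.6%. From 24 to 48 h, 8 of 10 were again higher, against 8.14% of all genes, and 0 lower, against 12.2%. The median log2 ratio of the 10 genes was 1.82 on the first day and 1.43 on the second, while the median of all genes lay between -0.02 and 0.02 in each of the 27 tables. The remaining genes on the first day were Jph2 with 0.65 and Atp2a2 with 0.37, and on the second day Jph2 with 0.45 and Stac3 with 0.86.

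The steepest wildtype courses were those of the fast-muscle calcium pump Atp2a1 and the calcium buffer Casq2. The length-scaled level of Atp2a1 was 52.7 at 0 h, 359 at 24 h, and 1197 at 48 h. The level of Casq2, the calsequestrin known best from cardiac and slow muscle, was 67.9, 552, and 1600 at the same times. Ryr1, the release channel, went from 6.85 to 48.0 and 110.6. When the log2 ratios of both days were added, the change over 48 h was 26.8-fold for Atp2a1, 24.6-fold for Casq2, and 17.5-fold for Ryr1. The voltage sensor genes spread between 5.60-fold for Cacng1 and 13.0-fold for Cacna1s, Jph1 changed 7.36-fold, and the smallest changes were 3.16-fold for Atp2a2 and 2.15-fold for Jph2. The order of levels also changed in wildtype progenitors. Atp2a2 was the most abundant member at 0 h with a level of 316, and at 48 h it stood at 847 below Casq2 and Atp2a1. Ryr1 had the lowest level at 0 h, and Jph1 the lowest at 48 h with 70.1. At 48 h the neighbours Cacnb1 and Cacna1s, with levels of 156 to 184 and of 160 to 163 over their tables, were not separated by the spread between tables.

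**Figure D1:**
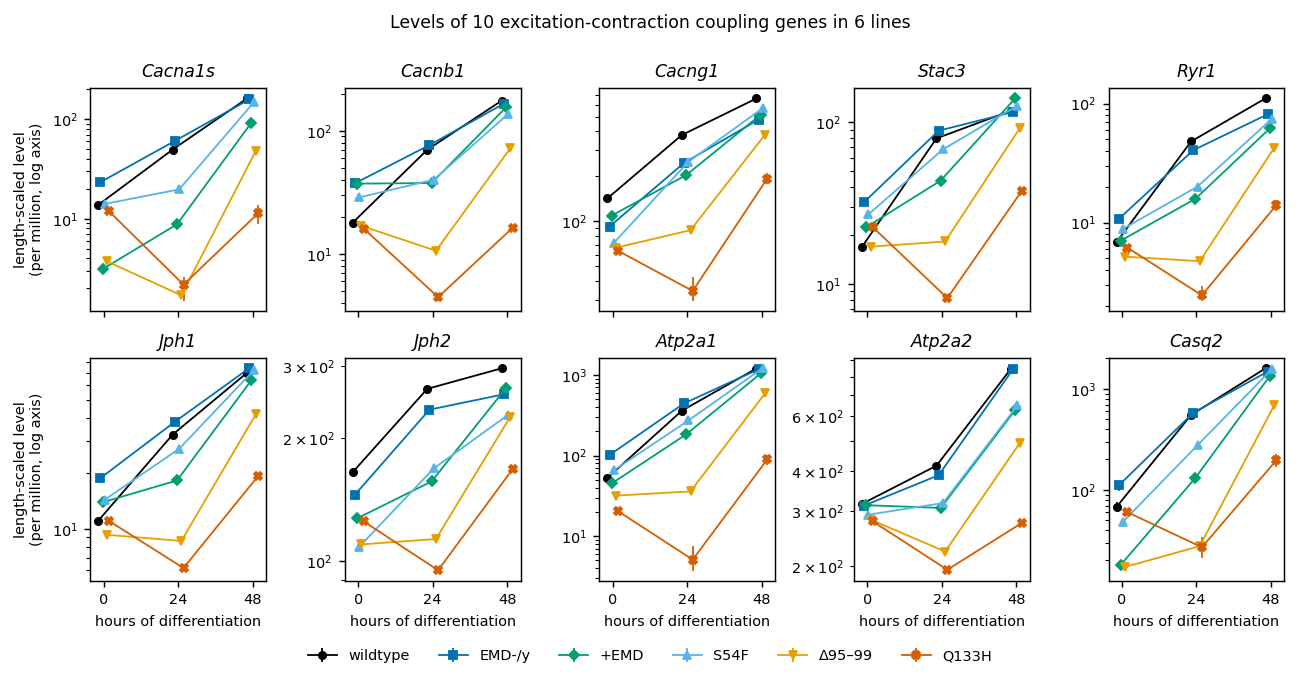
Length-scaled level (scaled to a sum of 1000000 per group, log axis) of each of the 10 genes at 0, 24, and 48 h of differentiation in 6 lines; points are means over the tables that hold a group and bars run from the lowest to the highest table, not between replicates. The wildtype and EMD-/y curves climb on both days, most Δ95–99 curves change little to 24 h, and Q133H dips at 24 h and ends lowest in all 10 panels.

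At 0 h most members were within 2-fold of wildtype in each line. In EMD-/y, 0 of 10 were at least 2-fold lower, against 3.94% of all genes, and 0 higher, against 5.18%. In +EMD, 2 were lower, against 11.0%, and 0 higher, against 6.30%. In S54F, 1 was lower, against 6.32%, and 0 higher, against 6.00%. In Δ95–99, 3 were lower, against 6.92%, and 0 higher, against 5.82%. In Q133H, 2 were lower, against 8.67%, and 0 higher, against 6.45%. The 0 h sample therefore held few differences beyond the threshold, and these fell on few genes. The lower genes in +EMD were Cacna1s with a log2 ratio of -2.12 and Casq2 with -1.85. Δ95–99 shared this pair, with -1.76 and -1.83, and added Cacng1 with -1.16. Cacng1, the gamma subunit of the channel, was also the lower gene in S54F with -1.05, and in Q133H it was lower with -1.17 together with Atp2a1 with -1.34. In EMD-/y progenitors, 7 of the 10 ratios were above 0, with a median of 0.55 and a highest ratio of 0.96 for Cacnb1. In Δ95–99 all 10 ratios were below 0, with a median of -0.54, and in Q133H 9 were, with a median of -0.15. In S54F 6 ratios were above 0, with a median of 0.14, and in +EMD 6 were below 0, with a median of -0.15.

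At 24 h the lines stood apart. In EMD-/y, 0 of 10 were at least 2-fold lower, against 2.89% of all genes, and 0 higher, against 4.79%, with a median log2 ratio of 0.11. In S54F, 2 were lower, against 6.69%, and 0 higher, against 5.84%, with a median of -0.59. In +EMD, 4 were lower, against 10.9%, and 0 higher, against 9.20%, with a median of -0.97. In Δ95–99, 9 were lower, against 12.3%, and 0 higher, against 9.05%, with a median of -2.50. In Q133H, 10 were lower, against 14.9%, and 0 higher, against 9.70%, with a median of -3.84. All 10 ratios were below 0 in each of S54F, +EMD, Δ95–99, and Q133H.

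Among the lowest ratios at 24 h in Δ95–99 and Q133H were those of the pore of the voltage sensor, the fast pump, and the calcium buffer. The release channel Ryr1 was also low, with levels of 48.0 in wildtype, 4.74 in Δ95–99, and 2.45 in Q133H. Cacna1s had a level of 49.7 in wildtype, 60.7 in EMD-/y, 19.8 in S54F, 8.80 in +EMD, 2.18 in Q133H, and 1.70 in Δ95–99. Its log2 ratio to wildtype was -1.29 in S54F, -2.56 in +EMD, -4.94 in Δ95–99, and -5.08 in Q133H. The level of Atp2a1 was 442 in EMD-/y, 359 in wildtype, 272 in S54F, 183 in +EMD, 35.9 in Δ95–99, and 5.12 in Q133H, and its log2 ratio in Q133H was -6.60. Casq2 stood at 579 in EMD-/y and 552 in wildtype, at 277 in S54F and 131 in +EMD, and at 27.8 in Δ95–99 and 27.1 in Q133H. For Cacna1s, Atp2a1, and Casq2, EMD-/y stood highest, +EMD lay between S54F and the remaining mutant lines, and Δ95–99 and Q133H were lowest. Over tables, the level of Cacna1s ran from 1.501 to 2.629 in Q133H and from 1.675 to 1.718 in Δ95–99. That of Casq2 ran from 21.2 to 34.5 and from 26.7 to 28.4. For Cacna1s and Casq2 the order of Q133H and Δ95–99 was therefore not resolved. In S54F the lower genes were Cacna1s and Ryr1, with -1.22 for Ryr1, and in +EMD they were Cacna1s, Casq2 with -2.13, Ryr1 with -1.67, and Atp2a1 with -1.02. Atp2a1 in +EMD fell short of 2-fold with -0.94 when columns were scaled to their sums. The only member of Δ95–99 short of the threshold was Atp2a2 with -0.98.

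At 48 h, +EMD and S54F no longer had a member past the threshold. In EMD-/y, 0 of 10 were at least 2-fold lower, against 2.96% of all genes, and 0 higher, against 5.02%. In S54F, 0 were lower, against 5.03%, and 0 higher, against 6.10%. In +EMD, 0 were lower, against 7.81%, and 0 higher, against 10.9%. In Δ95–99, 8 were lower, against 9.10%, and 0 higher, against 13.4%, and in Q133H 10 were lower, against 15.6%, and 0 higher, against 18.2%. The median log2 ratio was 0.00 in EMD-/y, -0.12 in S54F, -0.34 in +EMD, -1.17 in Δ95–99, and -2.62 in Q133H. Ratios below 0 were 5 of 10 in EMD-/y, 6 in S54F, 9 in +EMD, and 10 in each of Δ95–99 and Q133H. The count in Δ95–99 was 5 when columns were scaled to their sums, since Cacng1, Jph1, and Atp2a2 lay between -1.06 and -1.02 before and between -0.87 and -0.83 after. The same scaling left 9 of 10 in Q133H on each of these days.

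Ryr1 was the lowest of the 10 ratios in both lines that had come within 2-fold of wildtype, with -0.96 in +EMD and -0.50 in S54F. Its levels at 48 h were 110.6 in wildtype, 81.3 in EMD-/y, 74.8 in S54F, 61.9 in +EMD, 42.5 in Δ95–99, and 14.1 in Q133H. Cacna1s stood at 162 in wildtype, 159 in EMD-/y, 148 in S54F, 92.9 in +EMD, 48.1 in Δ95–99, and 11.3 in Q133H. Stac3, the adaptor that carries the voltage sensor to the junction, had its highest level in +EMD with 140.8, followed by S54F with 127, wildtype with 118, and EMD-/y with 116, and stood at 91.6 in Δ95–99 and 37.7 in Q133H. In Q133H the lowest ratios were those of Atp2a1 with -3.87, Cacna1s with -3.85, and Cacnb1, the beta subunit of the channel, with -3.51, and the ratio nearest to 0 was that of Jph2 with -1.13.

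**Figure D2:**
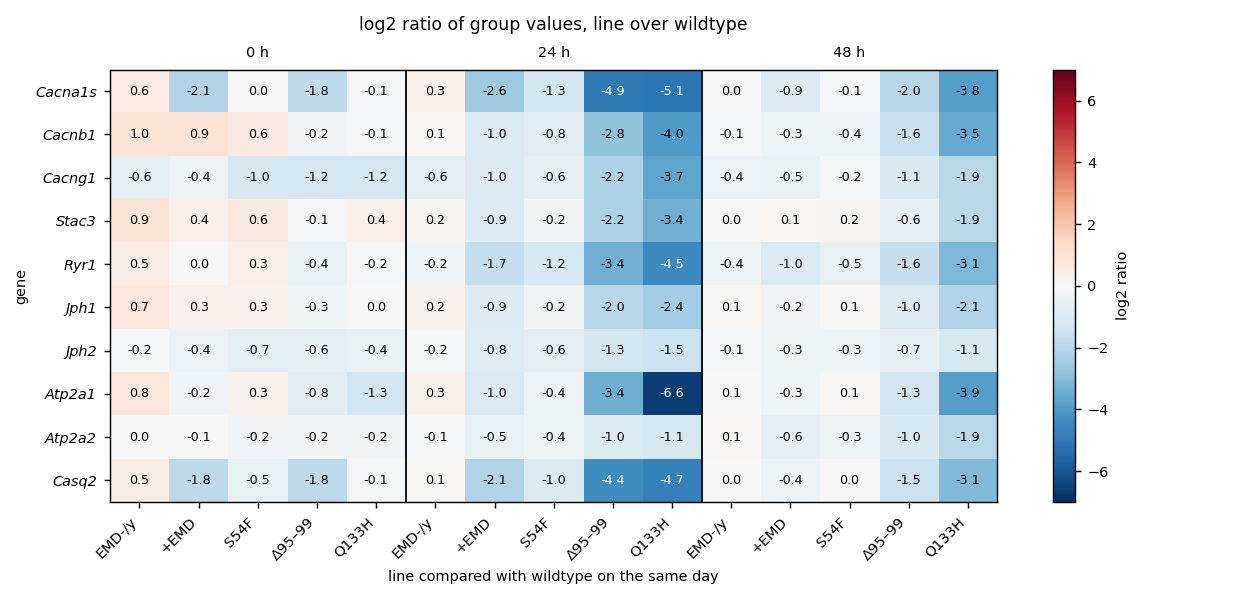
log2 ratio of the authors' group values, line over wildtype on the same day, for the 10 genes (rows) in 15 comparisons (columns, grouped by 0, 24, and 48 h); colour and printed value give the ratio. The deepest values are in Δ95–99 and Q133H at 24 h, down to -6.6 for Atp2a1, and the EMD-/y columns stay within -0.6 and 1.0.

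The comparisons between days gave each line its own course, and lines are set beside the wildtype course without a test. From 0 to 24 h, 6 of 10 genes were at least 2-fold higher in EMD-/y, against 12.2% of all genes, with 0 lower, against 9.67%. In S54F, 5 were higher, against 9.62%, and 0 lower, against 7.49%. In +EMD, 4 were higher, against 10.7%, and 0 lower, against 7.17%. In Δ95–99, 0 were higher, against 7.53%, and 1 lower, against 6.96%. In Q133H, 0 were higher, against 5.95%, and 6 lower, against 6.60%. The median log2 ratio on the first day was 1.28 in EMD-/y, 1.09 in S54F, 0.85 in +EMD, -0.05 in Δ95–99, and -1.27 in Q133H, beside 1.82 in wildtype.

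From 24 to 48 h the members were higher in every line. The counts at least 2-fold higher were 8 in EMD-/y, against 7.81% of all genes, 9 in S54F, against 9.54%, 10 in +EMD, against 11.2%, 10 in Δ95–99, against 9.17%, and 8 in Q133H, against 6.55%. None were at least 2-fold lower, against 11.4% of all genes in EMD-/y, 11.4% in S54F, 9.85% in +EMD, 5.49% in Δ95–99, and 4.54% in Q133H. The median log2 ratio was 1.38 in EMD-/y, 1.91 in S54F, 2.14 in +EMD, 2.65 in Δ95–99, and 1.95 in Q133H, beside 1.43 in wildtype. On the second day the increase was larger than that of wildtype for 10 of 10 members in S54F, 9 in +EMD, 9 in Δ95–99, and 8 in Q133H, and for 3 in EMD-/y. On the first day it was smaller than that of wildtype for 10 members in +EMD, Δ95–99, and Q133H, 9 in EMD-/y, and 8 in S54F. Among these, Cacng1 in EMD-/y and Casq2 in +EMD differed from wildtype by only -0.0063. These counts were taken for the members only, without a share over all genes. Both days share the 24 h groups, so a low value at 24 h makes the first change smaller and the second larger. The counts of both days are therefore not separate results. In Q133H, Cacna1s differed from wildtype on the second day by -0.12 directly and by 1.23 by way of the comparisons with wildtype.

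Δ95–99 held its change on the second day. Cacna1s was lower by 1.04 on the log2 scale from 0 to 24 h and then higher by 4.92, Casq2 went by 0.75 and then 4.72, and Atp2a1 by 0.07 and then 3.99. In Q133H all 10 log2 ratios from 0 to 24 h were below 0. They were -2.22 for Atp2a1, -2.04 for Cacna1s, -1.74 for Cacnb1, -1.44 for Stac3, -1.42 for Ryr1, and -1.12 for Casq2. From 24 to 48 h the ratios in Q133H were 3.31 for Atp2a1, 2.25 for Casq2, 2.08 for Ryr1, and 1.85 for Cacna1s. Added over both days, the change of the members had a median of 0.64 in Q133H, beside 2.52 in Δ95–99, 2.54 in EMD-/y, 2.62 in +EMD, 3.03 in S54F, and 3.33 in wildtype. These sums depend on the starting level. The median log2 ratio to wildtype in EMD-/y was 0.55 at 0 h and 0.00 at 48 h, and in Δ95–99 it was -0.54 and -1.17.

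The Q133H values depended on the table they were read from. At 24 h, Atp2a1 in Q133H had values of 119 to 249 over 3 tables, Cacna1s 75.0 to 138, and Casq2 437 to 754. By way of the wildtype tables, the increase of Atp2a1 in Q133H from 24 to 48 h was 4.75 instead of 3.31, that of Cacna1s 3.20 instead of 1.85, and that of Casq2 3.43 instead of 2.25. Over the 100 such loops of line, day, and gene, both routes differed by a median of 0.028 and by more than 0.3 in 10, of which 8 were in Q133H and the rest in Δ95–99. The direction was the same by both routes for these genes, and the cause of the gap was not tested.

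**Figure D3:**
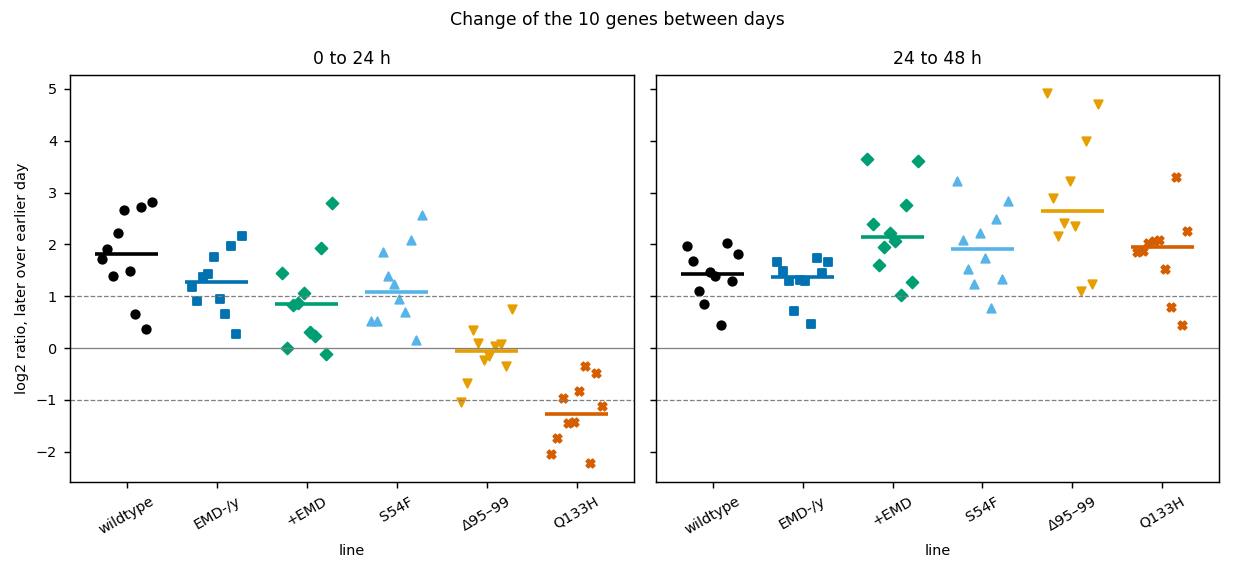
log2 ratio of the later over the earlier day for each of the 10 genes in 6 lines, from 0 to 24 h (left) and from 24 to 48 h (right); each point is a gene, the bar is their median, and dashed lines mark 2-fold. On the first day the medians run from 1.82 in wildtype to -1.27 in Q133H, and on the second day all medians lie between 1.38 and 2.65.

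Within the voltage sensor, the subunits did not keep their proportions. In wildtype progenitors the level of Cacna1s was 0.765 of that of Cacnb1 at 0 h, 0.708 at 24 h, and 0.924 at 48 h. Over tables, the wildtype level of Cacnb1 ran from 16.25 to 19.02 at 0 h and from 156 to 184 at 48 h. Its deposited length ran from 2768 to 3446 bases, so small steps in this ratio are not resolved. The same ratio was 0.0835, 0.234, and 0.599 in +EMD, and 0.221, 0.160, and 0.666 in Δ95–99. At 0 h in +EMD, the level of Cacna1s was 3.11 beside 13.8 in wildtype, while that of Cacnb1 was 37.3 beside a lower level in wildtype. The pore and the beta subunit therefore stood on opposite sides of wildtype in +EMD, with log2 ratios of -2.12 and 0.94. In EMD-/y, the parent line, Cacnb1 stood at 37.5 and Cacna1s at 23.3 at 0 h, and in S54F at 28.8 and 14.1. The higher Cacnb1 was thus not particular to +EMD. The ratio of Cacna1s to Cacnb1 at 0 h was 0.622 in EMD-/y and 0.49 in S54F. Set against Stac3, the level of Cacna1s at 48 h was 1.38 in wildtype, 1.37 in EMD-/y, 1.17 in S54F, 0.660 in +EMD, 0.526 in Δ95–99, and 0.301 in Q133H. Set against the gamma subunit Cacng1, it was 0.245 in wildtype, 0.331 in EMD-/y, and 0.0587 in Q133H. Ryr1 per Cacna1s was 0.681 in wildtype at 48 h and 1.24 in Q133H.

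The pumps, junctophilins, and calsequestrins come as paralogs that differ between progenitors and muscle fibres, and their shares were taken within each group. Atp2a1, the pump of fast fibres, made up 14.3% of the summed level of Atp2a1 and Atp2a2 in wildtype at 0 h, 46.2% at 24 h, and 58.6% at 48 h. At 48 h the share was 65.2% in S54F, 62.4% in +EMD, 58.1% in EMD-/y, 54.5% in Δ95–99, and 24.5% in Q133H. In Δ95–99 it had been 13.9% at 24 h, and in Q133H 2.56%. Atp2a2, which most cell types use, was the steadiest pump, with levels between 278 and 316 at 0 h in all 6 lines, and between 275 in Q133H and 847 in wildtype at 48 h. Jph1, the skeletal muscle junctophilin, made up 6.29% of the summed level of Jph1 and Jph2 in wildtype at 0 h and 19.1% at 48 h, with 24.0% in S54F and 10.3% in Q133H at 48 h. Ryr1 made up at least 95.3% of the summed level of Ryr1, Ryr2, and Ryr3 in all 18 groups.

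Calsequestrin was represented mainly by Casq2. Casq1, the isoform of fast fibres and not a member, made up 1.39% of the summed level of Casq1 and Casq2 in wildtype at 0 h and 6.55% at 48 h. At 48 h the share was 9.13% in EMD-/y, 3.87% in S54F, 1.56% in +EMD, 0.697% in Δ95–99, and 0.169% in Q133H. The averaged value of Casq1 at 48 h was 1800 in wildtype, 2415 in EMD-/y, 1078 in S54F, 324 in +EMD, 71.8 in Δ95–99, and 4.83 in Q133H. Its log2 ratio to wildtype at 48 h was -2.47 in +EMD, -4.76 in Δ95–99, and -8.53 in Q133H, where the corresponding ratios of Casq2 were -0.37, -1.49, and -3.11.

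**Figure D4:**
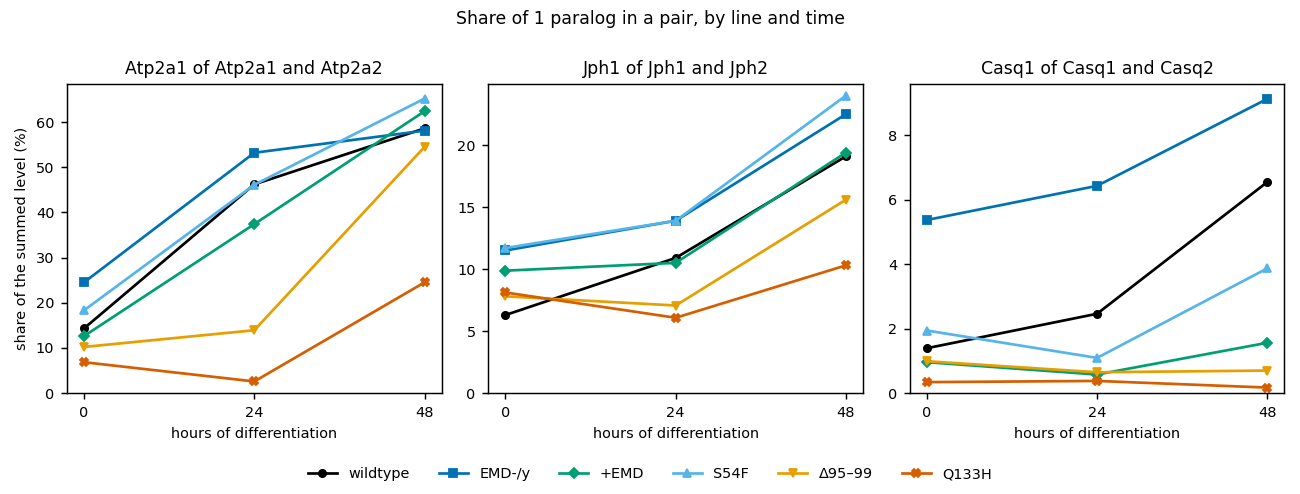
Share (%) of the first-named gene in the summed length-scaled level of a paralog pair at 0, 24, and 48 h in 6 lines, for the pumps, the junctophilins, and the calsequestrins; each axis starts at 0. The share of Atp2a1 passes 50% by 48 h in all lines but Q133H, where it is 24.5%, and the share of Casq1 is highest in EMD-/y.

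Other genes of the pathway were taken from 3 lists with 36 genes in all, of which 28 to 34 reached the minimum in a table. In wildtype, 14 of 31 were at least 2-fold higher and 2 lower from 0 to 24 h, against 12.7% and 10.6% of all genes, and 17 of 33 were higher and 1 lower from 24 to 48 h, against 8.14% and 12.2%. Against wildtype at 24 h, 19 of 32 were at least 2-fold lower in Q133H, against 14.9% of all genes, and 17 of 31 in Δ95–99, against 12.3%. The count was 11 of 31 in +EMD, against 10.9%, 5 of 31 in S54F, against 6.69%, and 0 of 31 in EMD-/y, against 2.89%. Those higher at 24 h were 3 in EMD-/y, against 4.79%, 1 in +EMD, against 9.20%, 1 in S54F, against 5.84%, and 0 in Δ95–99 and Q133H. At 48 h, 23 of 34 were lower in Q133H, against 15.6%, 12 of 33 in Δ95–99, against 9.10%, 8 of 33 in +EMD, against 7.81%, 1 of 33 in S54F, against 5.03%, and 0 of 33 in EMD-/y, against 2.96%. Those higher at 48 h were 3 in EMD-/y, against 5.02%, 3 in Q133H, against 18.2%, 2 in +EMD, against 10.9%, 1 in S54F, against 6.10%, and 1 in Δ95–99, against 13.4%.

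Several genes of the sarcoplasmic reticulum were far lower in Q133H and Δ95–99. Trdn encodes triadin, which ties calsequestrin to the ryanodine receptor, and its log2 ratio at 24 h was -4.60 in Q133H and -3.34 in Δ95–99. The histidine-rich calcium binding protein Hrc had -6.00 and -4.97, and sarcalumenin, encoded by Srl, had -4.77 and -3.38. Jsrp1, a protein of the junctional face, had -3.00 and -1.71, and the counter-ion channel Tmem38a had -2.79 and -1.64. Mrln, which encodes the pump inhibitor myoregulin, had -3.10 and -1.65 at 24 h. In Δ95–99 from 0 to 24 h, where 0 members were at least 2-fold higher, Tmem38a was higher by 1.67 and Mrln by 1.22 on the log2 scale. Sln, which encodes the pump inhibitor sarcolipin, stayed at averaged values of at most 23.0 in all groups. Asph, which makes junctin among other products, went the other way at 48 h, with log2 ratios between 0.29 in EMD-/y and 0.97 in Q133H. Cacna2d1, the alpha2delta subunit of the channel, had a log2 ratio of -1.51 in Q133H and -1.11 in Δ95–99 at 24 h.

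The 11 calcium store and flux genes used by most cells had median log2 ratios to wildtype between -0.58, in +EMD at 48 h, and 0.10, in EMD-/y at 0 h. At 24 h, 2 of the 11 were at least 2-fold lower in Δ95–99, against 12.3% of all genes, and 4 in Q133H, against 14.9%, with 0 higher in both and medians of -0.05 and -0.18. At 48 h, 5 were lower and 2 higher in Q133H, against 15.6% and 18.2%, with a median of 0.08. In +EMD at 48 h, 1 was lower and 1 higher, against 7.81% and 10.9%, and the median was farther from 0 than that of the members. Itpr1, the inositol trisphosphate receptor, had a course opposite to that of the members. Its level in wildtype was 23.3 at 0 h, 10.7 at 24 h, and 3.70 at 48 h, while in Q133H it was 7.27, 6.86, and 7.04. Stim1, the calcium sensor of the store, had a log2 ratio of 1.16 from 24 to 48 h in wildtype and 0.14 in Q133H. Orai1, the plasma membrane channel that Stim1 opens, was at least 2-fold higher over the same day in both, with 1.30 in wildtype.

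Markers of differentiation and of the cell cycle were set beside the members. Myog, the factor of terminal myogenic differentiation, had a log2 ratio to wildtype at 24 h of -3.73 in Q133H, -1.89 in Δ95–99, -0.42 in +EMD, -0.08 in S54F, and -0.23 in EMD-/y. Myh3, the embryonic myosin heavy chain, had -5.17, -4.15, -2.46, -1.11, and 0.16 in the same order, and the muscle creatine kinase gene Ckm had -6.93, -4.81, -2.33, -0.32, and 0.25. Myod1, expressed in progenitors before differentiation, had -1.55, -0.74, 0.02, 0.03, and -0.33. The median over the 10 myoblast and myocyte markers at 24 h was -3.45 in Q133H and -2.44 in Δ95–99, beside -3.84 and -2.50 for the members. Of these 10 markers, 9 were at least 2-fold lower in Q133H, against 14.9% of all genes, and 7 in Δ95–99, against 12.3%. Myf5, also on the list, went the other way. It was at least 2-fold higher than wildtype at 24 h in Q133H, Δ95–99, and +EMD, against 9.70%, 9.05%, and 9.20% of all genes. The summed level of the 4 proliferation markers Mki67, Top2a, Ccnb1, and Cdk1 at 48 h was 14.5 in wildtype, 34.9 in EMD-/y, 35.4 in S54F, 149.9 in Q133H, 195.9 in +EMD, and 213 in Δ95–99. +EMD therefore combined members within 2-fold of wildtype at 48 h, 9 of 10 of them below it, with a summed proliferation level near that of Δ95–99. The part of differentiation or cycling cells in the lower levels of the members was not tested.

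**Figure D5:**
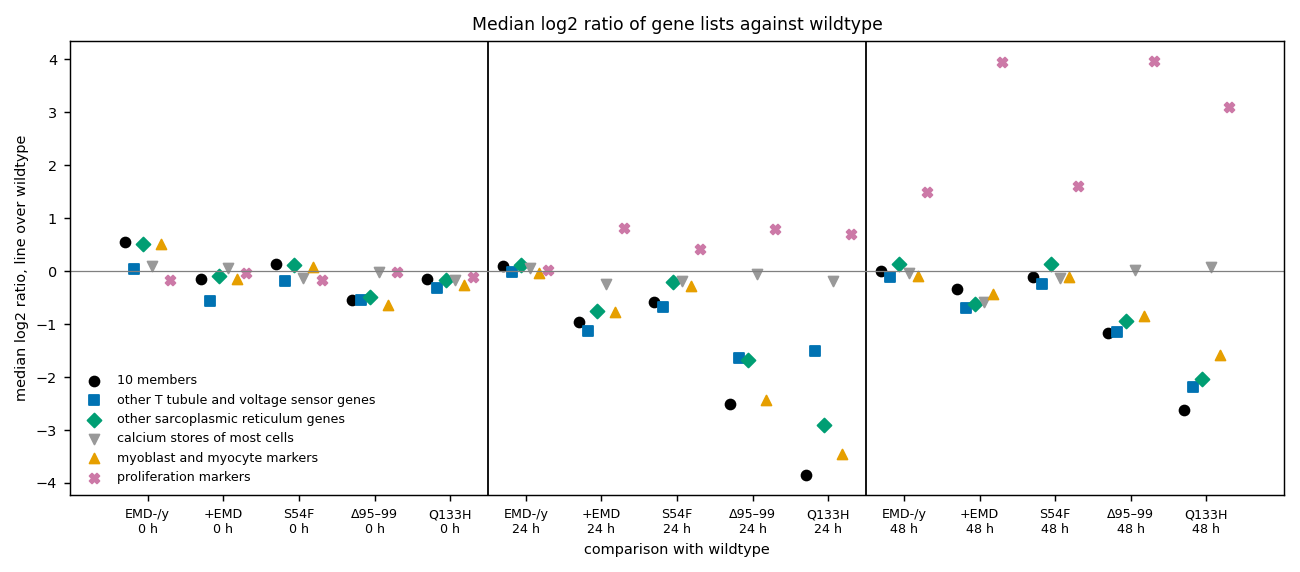
Median log2 ratio of line over wildtype for the 10 members, 3 lists of other pathway genes, and 2 marker lists (symbols) in 15 comparisons (x axis, by time); only genes with a higher value of at least 10 enter. At 24 h in Q133H the members lie at -3.84 beside -3.45 for the myoblast and myocyte markers and -0.18 for the stores of most cells, and at 48 h the proliferation markers lie at 3.94 in +EMD, 3.96 in Δ95–99, and 3.11 in Q133H.

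The members resembled each other across the 18 groups. Pearson's r between the log2 level of a member and the mean of the centred log2 levels of the other 9 ranged from 0.929 for Atp2a2 to 0.993 for Ryr1. These values describe group means that share libraries, tables, and the course of differentiation. The standard deviation of the log2 level over the groups ranged from 0.523 for Jph2 to 2.34 for Casq2. Levels spanned 237-fold for Atp2a1, from 5.12 in Q133H at 24 h to 1212 in S54F at 48 h, 95.5-fold for Cacna1s, 92.7-fold for Casq2, 45.2-fold for Ryr1, and 3.11-fold for Jph2. Of 13407 other genes, those with a course most like the mean of the members included Pkig (r = 0.994), Mymk (r = 0.993), Myom3 (r = 0.991), and Myoz2 (r = 0.990), over the same 18 groups. Mymk, which encodes the fusion protein myomaker and is also among the myocyte markers, had levels from 67.2 in Q133H at 24 h to 4243 in wildtype at 48 h.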

How the data were processed

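Poly-A RNA was sequenced by the authors' provider as 100-base read pairs. Per the labels and the study's methods, reads were filtered with SOAPnuke, mapped to mm10 with HISAT2, and DESeq2 was run on pairs of groups; versions and the annotation are not given in the sources used here. The methods describe 3 technical replicates for each of 2 biological replicates, while the labels list 3 replicates per group without naming their kind.

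The deposited signal values are normalised counts per group, 2 groups in each of 27 tables, made by the authors. In all 27 tables, genes with 1 read gave 6 distinct sums of both group values, 3 for each group, which is what division by 6 size factors gives (0.849 to 1.15, up to 1.31-fold apart within a table). Such genes had log2 ratios of only 0.109 to 0.439, so the group values are not the plain means that the planned comparisons assumed. Columns summed to between 16719491 and 21128040. Other columns hold the authors' fold changes, p-values, q-values, and calls and were not used.

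Gene numbers were matched to RefSeq symbols (15658 to 16323 of 17215 to 17876 listed genes per table; the rest are mostly predicted genes without a number). Ratios, levels per kilobase, and shares were computed with Python 3.11.15, numpy 2.4.6, and pandas 2.3.3, figures with matplotlib 3.10.9, and copies (at least 200 bases at 97% identity or more) with minimap2 2.31-r1302. Alternatives were 1.5-fold and 3-fold thresholds, other minimum values, a pseudocount of 1, total scaling, and median centring. The members and gene lists were chosen with earlier results of these data known. By rule, the genes named with values are the members, 14 pathway genes, 5 reference genes, and the 5 genes most like the members over the groups, of which 1 is not reported here. Ryr2 and the proliferation markers are named only as parts of sums. Ptprc, Cd68, Myf5, Scn4a, Slc8a1, Atp2a3, and Cacna1h were named after their values were seen.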

Additional observations from a re-analysis of the deposited data

How the results depend on the processing

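The deposited tables hold 1 value per group, so the spread between replicates is unknown, no replicate could be left out, and every count rests on a fold threshold alone. No paired analysis was possible because the tables hold no values per sample. The fold threshold moved the counts most. With 1.5-fold in place of 2-fold, the member and day combinations lower than wildtype, of 30 per line, became 2 instead of 0 in EMD-/y, 13 instead of 6 in +EMD, and 7 instead of 3 in S54F, and those higher became 4 in EMD-/y, 1 in +EMD, and 2 in S54F instead of 0. With 3-fold, those lower became 12 instead of 20 in Δ95–99 and 0 instead of 3 in S54F. Between days, of 20 combinations per line, those higher became 10 instead of 16 in wildtype, 6 instead of 14 in EMD-/y, and 9 instead of 14 in S54F with 3-fold. Those lower became 3 instead of 6 in Q133H with 3-fold, and in Δ95–99 they became 2 with 1.5-fold and 0 with 3-fold instead of 1. The minimum value, the pseudocount, total scaling, and median centring kept each of these counts within 1.5 times, and no ratio past the threshold changed sign. Total scaling shifted all log2 ratios of a table by up to 0.27 and took 10 member ratios of 270 below the threshold, all of them between 1.02 and 1.23 in size before. Reading a line's change by way of the wildtype tables, which was chosen after seeing the data, gave 7 instead of 6 lower in Q133H and moved no other count by more than 2, although single ratios in Q133H moved by up to 1.45. Counting only genes with a known symbol kept the share of all genes past the threshold within 1.5 times in all 27 comparisons.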

Other observations

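Beside the members, which stayed within 2-fold of wildtype in EMD-/y progenitors, 2 or 3 other pathway genes per day were at least 2-fold higher in EMD-/y. Of the other pathway genes, 2 of 31 were at least 2-fold higher at 0 h, against 5.18% of all genes. The count was 3 of 31 at 24 h, against 4.79%, and 3 of 33 at 48 h, against 5.02%. At 0 h, 1 of 31 was lower, against 3.94%, and at 24 and 48 h 0 were, against 2.89% and 2.96%. The higher genes were Scn4a and Casq1 at 0 h, Casq1, Ryr3, and Slc8a1 at 24 h, and Ryr3, Atp2a3, and Slc8a1 at 48 h. The lower gene at 0 h was Cacna1h. Counts this small are not read as a result on the pathway. Casq1, the calsequestrin of fast fibres, had a log2 ratio of 1.46 at 0 h, 1.26 at 24 h, and 0.50 at 48 h. Ryr3, the ryanodine receptor found in developing muscle, had 1.09, 1.27, and 1.19, on averaged values of 9.66, 142, and 355 in EMD-/y. At 0 h Ryr3 did not reach the minimum value of 10 in EMD-/y. In S54F and Q133H at 0 h it did, and it was at least 2-fold higher than wildtype there. A higher Ryr3 at 0 h was therefore not particular to EMD-/y. In +EMD progenitors, both genes were lower than wildtype at 24 and 48 h, with -4.19 and -2.47 for Casq1 and -3.52 and -2.96 for Ryr3. In Δ95–99 the ratios were -6.29 and -4.76 for Casq1 and -3.70 and -2.58 for Ryr3. Casq1 stood at an averaged value of 4.83 in Q133H at 48 h, under the minimum, while Ryr3 was at 29.1. These differences are given without a test, since the tables give no spread between replicates and the authors' test columns were not used.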
